A study of Mus musculus with 16 samples.

Results

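The interferon response and nucleic acid sensing genes described here are a fixed list of 35 mouse genes, found by the gene symbol that the platform annotation gives to each probe set. The list holds 4 sensors of foreign or misplaced nucleic acid, 6 transcription factors, 20 antiviral effectors and 5 interferon-inducible GTPases. No measured value was a criterion of the list, though earlier results of these data were known when it was chosen. Of the 35 genes, 33 had a named probe set among the 19505 named genes of the array. Ifi44 and Ifi47 had none and were not analysed here. A filter on low signal was passed by 28 of the 33, out of 16665 genes tested in all, and Irf3, Irf7, Ifit1, Oasl1 and Ifi27 did not pass it. Those 5 genes entered no test, and their signals are described by array only.

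Gene expression was measured on Mouse Clariom S arrays, 1-color oligonucleotide arrays that read 1 signal per probe set, in nucleus pulposus (NP) and annulus fibrosus (AF), the gel-like core and the fibrous ring of the intervertebral disc. Sirt6 cKO mice carried floxed Sirt6 alleles and the AcanCreERT2 allele, in which the aggrecan locus drives a tamoxifen-dependent Cre recombinase, so that deletion is limited to aggrecan-expressing cells such as those of the NP, AF and endplate. The controls were littermate Sirt6 fl/fl mice without Cre. Tamoxifen was injected into young adults of both genotypes, all mice were males of mixed strain background, and tissue was taken at 24 months of age. Each array held tissue pooled from lumbar and caudal discs of a single mouse, and each of the 4 groups (cKO NP, fl/fl NP, cKO AF and fl/fl AF) had 4 arrays from 4 mice.

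Cells recognize viral RNA through cytosolic helicases such as RIG-I and MDA5, and Z-form or double-stranded nucleic acid through proteins such as ZBP1 and PKR. The helicases start the synthesis of type I interferons. These interferons act on neighboring cells through JAK kinases and a complex with STAT2 and IRF9, which binds the interferon-stimulated response element (ISRE) of target promoters. The target genes encode the antiviral effectors on the list, most of which are low in resting tissue and rise strongly once interferon is present. SIRT6, a nuclear deacetylase of the sirtuin family, is known in other mouse tissues to silence retroelements, whose transcripts and DNA copies can set off the same sensors. The measurements address whether the transcripts of this response differed in level between cKO and fl/fl discs.

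Many promoters of these genes hold a sequence element that was not itself a criterion of the list. Most of the genes were listed as interferon targets, which are switched on through this element, so its frequency among them is not an independent result. RefSeq promoter windows of 300 bases (250 before and 50 after each start site, GRCm38.p6) were matched by symbol for 28 of the 35 listed genes. The ISRE core searched, GAAA and GAAA set 2 bases apart and read on both strands, stood in the windows of 15 of the 28 genes (53.6%), against 3.99% of 27025 genes with a window. The gamma-activated sequence TTCNNNGAA, the element of interferon gamma signaling, stood in 9 of the 28 (32.1%), against 9.55% of all genes. Both motifs were counted whether or not their copies overlapped, and 5 genes held both. A match is a description of the letters and not of a binding site. The stretches below are from the genes that the results turn on, 5′ to 3′ on the strand of the gene, with the ISRE core in capitals, or the gamma-activated sequence for Ifi35. Overlapping copies run together as in Isg15 and Oas1a. The Isg15 stretch is on chr4:156200840-156200919 (minus strand), Ifit1 on chr19:34640769-34640848 (plus), Gbp2 on chr3:142620569-142620648 (plus), Oas1a on chr5:120907526-120907574 (minus), Ddx58 on chr4:40239804-40239833 (minus), Ifih1 on chr2:62646206-62646233 (minus) and Ifi35 on chr11:101448409-101448437 (plus).
Isg15: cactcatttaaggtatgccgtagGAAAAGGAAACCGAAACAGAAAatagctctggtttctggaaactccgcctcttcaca
Ifit1: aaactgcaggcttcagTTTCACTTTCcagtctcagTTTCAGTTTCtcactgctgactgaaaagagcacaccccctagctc
Gbp2: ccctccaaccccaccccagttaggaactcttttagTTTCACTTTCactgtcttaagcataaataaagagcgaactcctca
Oas1a: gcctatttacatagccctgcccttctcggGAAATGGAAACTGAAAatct
Ddx58: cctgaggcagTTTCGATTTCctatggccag
Ifih1: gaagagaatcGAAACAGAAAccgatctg
Ifi35: agaagcagaaTTCACAGAAatgaaagtgg

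Most of the 33 genes were near background in both tissues. A gene was called detected on an array when its signal was at least 2-fold over background, taken as the median signal of 23 control probe sets on the same array, which lay between 4.28 and 4.33 on the log2 scale in NP and between 4.65 and 4.83 in AF. Only Zbp1, Irf9, Stat2 and Oasl2 were detected on 8 or more of the 16 arrays, which is 12.1% of the 33 genes, against 14.1% of all named genes. On no array were 17 of the 33 detected, among them Isg15, Irf7 and Ifit1. In NP, 3, 4, 3 and 5 genes were detected on the cKO arrays, against 7, 5, 5 and 6 on the fl/fl arrays, so that the cKO arrays held fewer or at most as many. In AF the counts were 2, 6, 9 and 5 on the cKO arrays and 5, 7, 8 and 5 on the fl/fl arrays, with full overlap. Over all named probe sets, 15.5% to 17.8% were detected in NP and 17.4% to 22.6% in AF. In these whole-tissue samples, fewer cells of a type and less RNA per cell cannot be told apart.

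**Figure D1:**
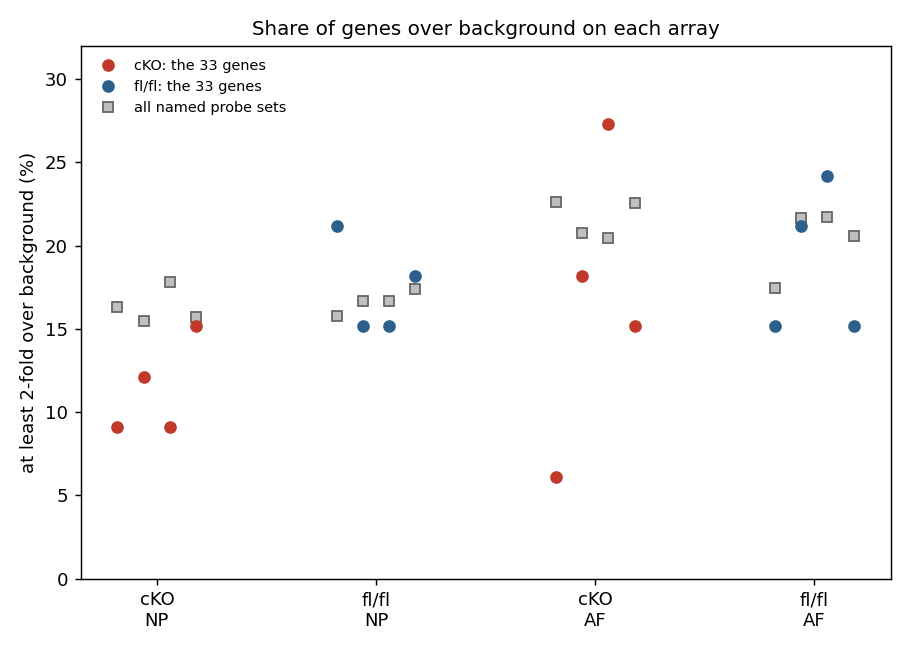
Share of genes at least 2-fold over background (percent, y axis) on each array by group (x axis), for the 33 interferon and sensing genes (circles, red cKO and blue fl/fl) and for all named probe sets (gray squares). On the cKO NP arrays 9.1% to 15.2% of the 33 genes were over background, and on the fl/fl NP arrays 15.2% to 21.2%, while the AF groups overlapped.

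Several facts of the whole series bear on these values. The Sirt6 probe set was not detected on any of the 16 arrays (3.69 to 4.54 in cKO NP, 3.74 to 4.21 in fl/fl NP, 3.39 to 4.89 in cKO AF and 4.49 to 5.13 in fl/fl AF), so it gave no check of the genotype labels. Acan was detected on all 16 arrays. Krt8, a keratin of NP cells, was detected on all 8 NP arrays and also on 3 cKO and 4 fl/fl AF arrays. Scx, a tendon and AF transcription factor, was detected on none. Mkx, another tendon and AF gene, was detected on 4 cKO and 3 fl/fl NP arrays and on 3 cKO and 4 fl/fl AF arrays. By detection, Acan, Krt8, Scx and Mkx did not part the tissues. Krt19, another NP keratin, was detected on 2 cKO and 4 fl/fl NP arrays, and in AF on 1 fl/fl array only. After the arrays were quantile normalized together, 6 of 8 NP and notochord genes were higher in NP than in AF in each genotype, and 2 lower. Of 8 annulus and tendon genes, 4 were higher and 4 lower in each genotype. Arrays of a tissue correlated with each other at 0.605 to 0.822 in NP and at only 0.369 to 0.717 in AF. The cKO NP arrays 1 and 3 and the cKO AF arrays 1 and 4 were known from earlier results to stand apart, and counts are also given without them. The skeletal muscle gene Myh4 was detected on 3 of 4 cKO NP arrays (4.39 to 10.7) and on none of the fl/fl NP arrays (4.36 to 4.74).

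In NP the differences of the interferon and sensing transcripts between cKO and fl/fl mice were split evenly by sign over the genes tested, most of which were near background. The thresholds of the study (p up to 0.05 without adjustment, with a log2 difference of 0.81 or more in size) were applied here to limma p-values, whereas the authors name the SAM statistic. None of the 28 genes tested passed them, against 2.39% of all 16665 genes, which for a list of this size is less than 1 gene. At an unadjusted p under 0.05 without the fold threshold, 1 gene was higher in cKO (Gbp2) and none lower, against 4.94% of all genes in either direction. The log2 differences, cKO minus fl/fl, ran from -0.58 for Oasl2 to 0.65 for Gbp2, with 14 positive and 14 negative. Their median was 0.01, beside -0.02 over all genes. The 4 genes detected on at least 4 of the 8 NP arrays (Zbp1, Irf9, Stat2 and Oasl2) all had negative differences. So had 1495 of the 2791 genes of the array detected in this way. The median of the 4 was -0.364, beside -0.035 over those 2791 genes, and none of the 4 passed. Stat2 was nearly level at -0.01. Oasl2 met the detection rule mainly through fl/fl arrays (3, against 1 cKO array), so its sign is not independent of that rule. The 95% interval of the difference excluded a doubling in cKO for 25 of the 28 genes (89.3%, against 81.3% of all genes) and a halving for 24 (85.7%, against 79.1%). No gene of the array passed at an adjusted p under 0.05 in NP (limma with Benjamini-Hochberg adjustment). Without cKO NP arrays 1 and 3 the count was 1 (Iigp1), beside 616 of all 16665 genes. Without fl/fl NP array 4 it was 1 (Oasl2, lower in cKO), beside 450 of all 16665 genes.

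In cKO AF the genes were likewise spread on both sides of 0, and 1 passed the thresholds in each direction. Ifi35 was higher, as were 1.97% of all genes, and Oas1a was lower, as were 1.57%, which makes 2 of 28 genes against 3.54% of all genes. The differences ran from -1.31 for Oas1a to 0.87 for Ifi35, with 12 positive and 16 negative and a median of -0.09, beside 0.01 over all genes. The spread between arrays was larger in AF, and the 95% interval excluded a doubling for 18 of the 28 genes (64.3%, against 60.7% of all genes) and a halving for 18 (64.3%, against 62.1%). At an unadjusted p under 0.05 the list again held only these 2 genes, against 4% of all genes. No gene of the array passed at an adjusted p under 0.05 (limma), and both called genes had an adjusted p of 0.984. Among genes detected on at least 4 of the 8 AF arrays, 5 genes of the list were left, with a median difference of -0.165, beside 0.058 over the 3537 genes of the array detected so, and none passed. Without fl/fl AF array 1, or without cKO AF array 3, the count was 0. Without cKO AF arrays 1 and 4 it was 3 (Oas1a, Ifitm3 and Ifi35), beside 589 of all 16665 genes.

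**Figure D2:**
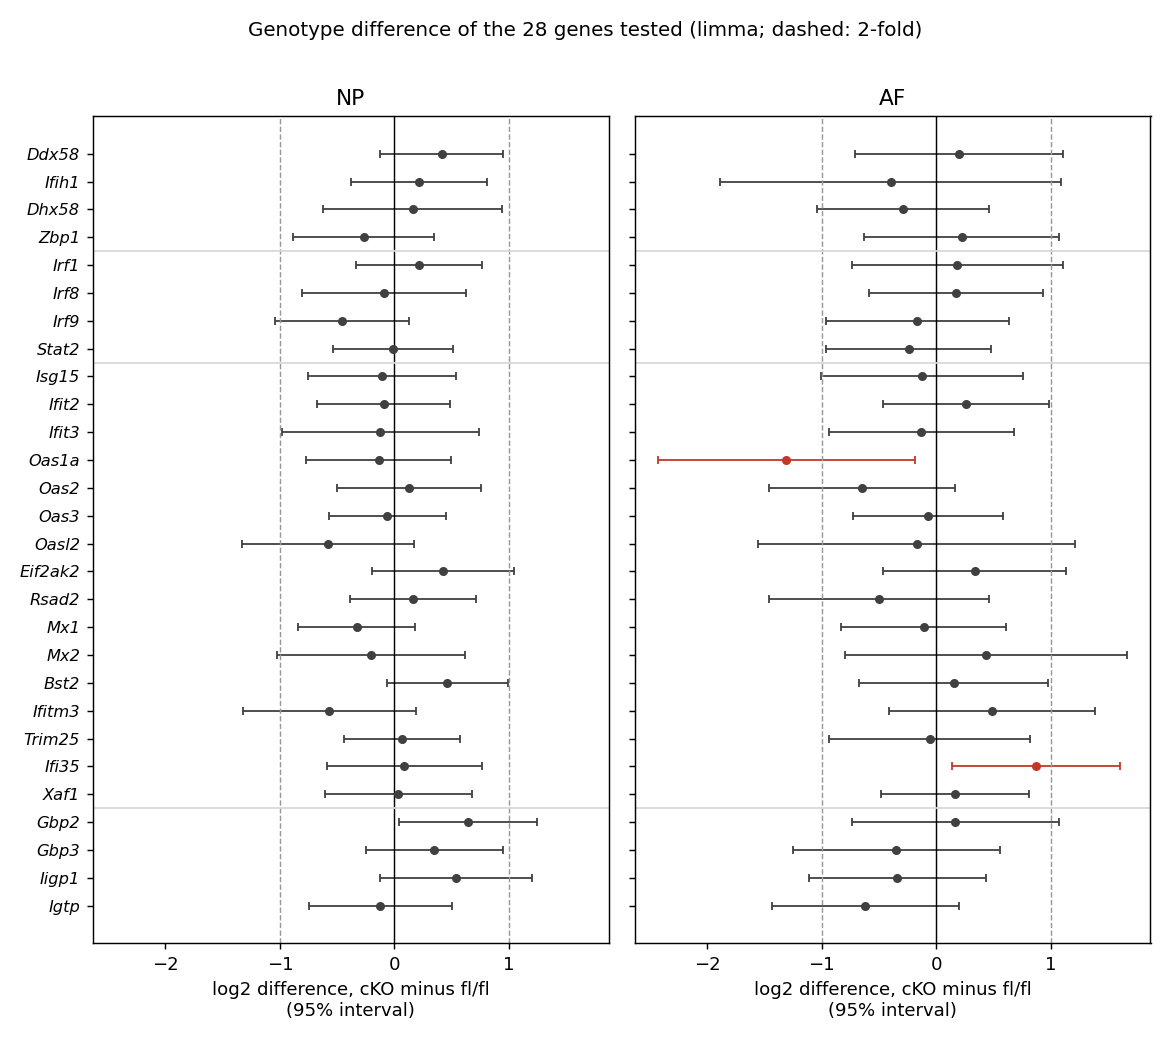
Log2 difference, cKO minus fl/fl, with its 95% interval (x axis) for each of the 28 genes tested (y axis, in the order sensors, transcription factors, antiviral effectors and GTPases, parted by gray lines), in NP (left) and AF (right). Red marks the genes past the thresholds of the study, none in NP and Oas1a and Ifi35 in AF, and dashed lines mark a 2-fold difference.

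The RNA helicases and Zbp1, the sensors of the list, did not pass the test in either tissue. Ddx58, which encodes RIG-I and is now named Rigi, read 5.09, 4.51, 4.83 and 4.36 in cKO NP, against 4.21, 4.33, 4.19 and 4.42 in fl/fl NP. The cKO arrays were mostly higher, with cKO array 4 inside the fl/fl range, and all 8 arrays were within 2-fold of background. The difference was 0.42 (95% interval -0.12 to 0.95, limma adjusted p = 0.934). In AF, Ddx58 was detected on 3 of 4 arrays of each genotype, with 5.10, 6.38, 6.25 and 6.88 in cKO AF and 5.32, 5.97, 6.42 and 6.07 in fl/fl AF, and array 1 was the lowest in both groups. The AF difference was 0.20 (-0.71 to 1.11).

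Zbp1, the sensor of Z-form nucleic acid that can start necroptosis, was the sensor detected most often, on 14 of 16 arrays. It read 5.23, 5.70, 5.52 and 5.95 in cKO NP, against 5.96, 5.39, 5.75 and 6.39 in fl/fl NP. In AF it read 5.97, 6.72, 6.37 and 6.44 in cKO and 6.47, 5.14, 6.78 and 6.24 in fl/fl. The groups overlapped in both tissues, with differences of -0.27 (95% interval -0.88 to 0.34) in NP and 0.22 (-0.63 to 1.08) in AF. The NP interval excludes a doubling of Zbp1 in cKO.

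Ifih1, which encodes MDA5, read 5.02, 4.99, 4.70 and 4.76 in cKO NP, against 4.94, 4.04, 4.60 and 5.03 in fl/fl NP. In AF the signals were 3.96, 4.49, 6.04 and 5.06 in cKO and 3.95, 7.47, 4.41 and 5.30 in fl/fl, so that single arrays of each genotype (cKO array 3, fl/fl array 2) stood high while the rest were near background. The differences were 0.22 in NP and -0.40 in AF, with an AF interval of -1.88 to 1.09 that holds both a doubling and a halving. Dhx58, which encodes the related helicase LGP2 that tunes both sensors, was detected on no array, with 3.88, 4.69, 3.43 and 4.65 in cKO NP and 4.35, 4.37, 4.05 and 3.23 in fl/fl NP. Its AF signals were 5.15, 4.52, 4.23 and 5.09 in cKO and 5.11, 5.48, 4.66 and 4.89 in fl/fl. Its groups overlapped in both tissues.

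**Figure D3:**
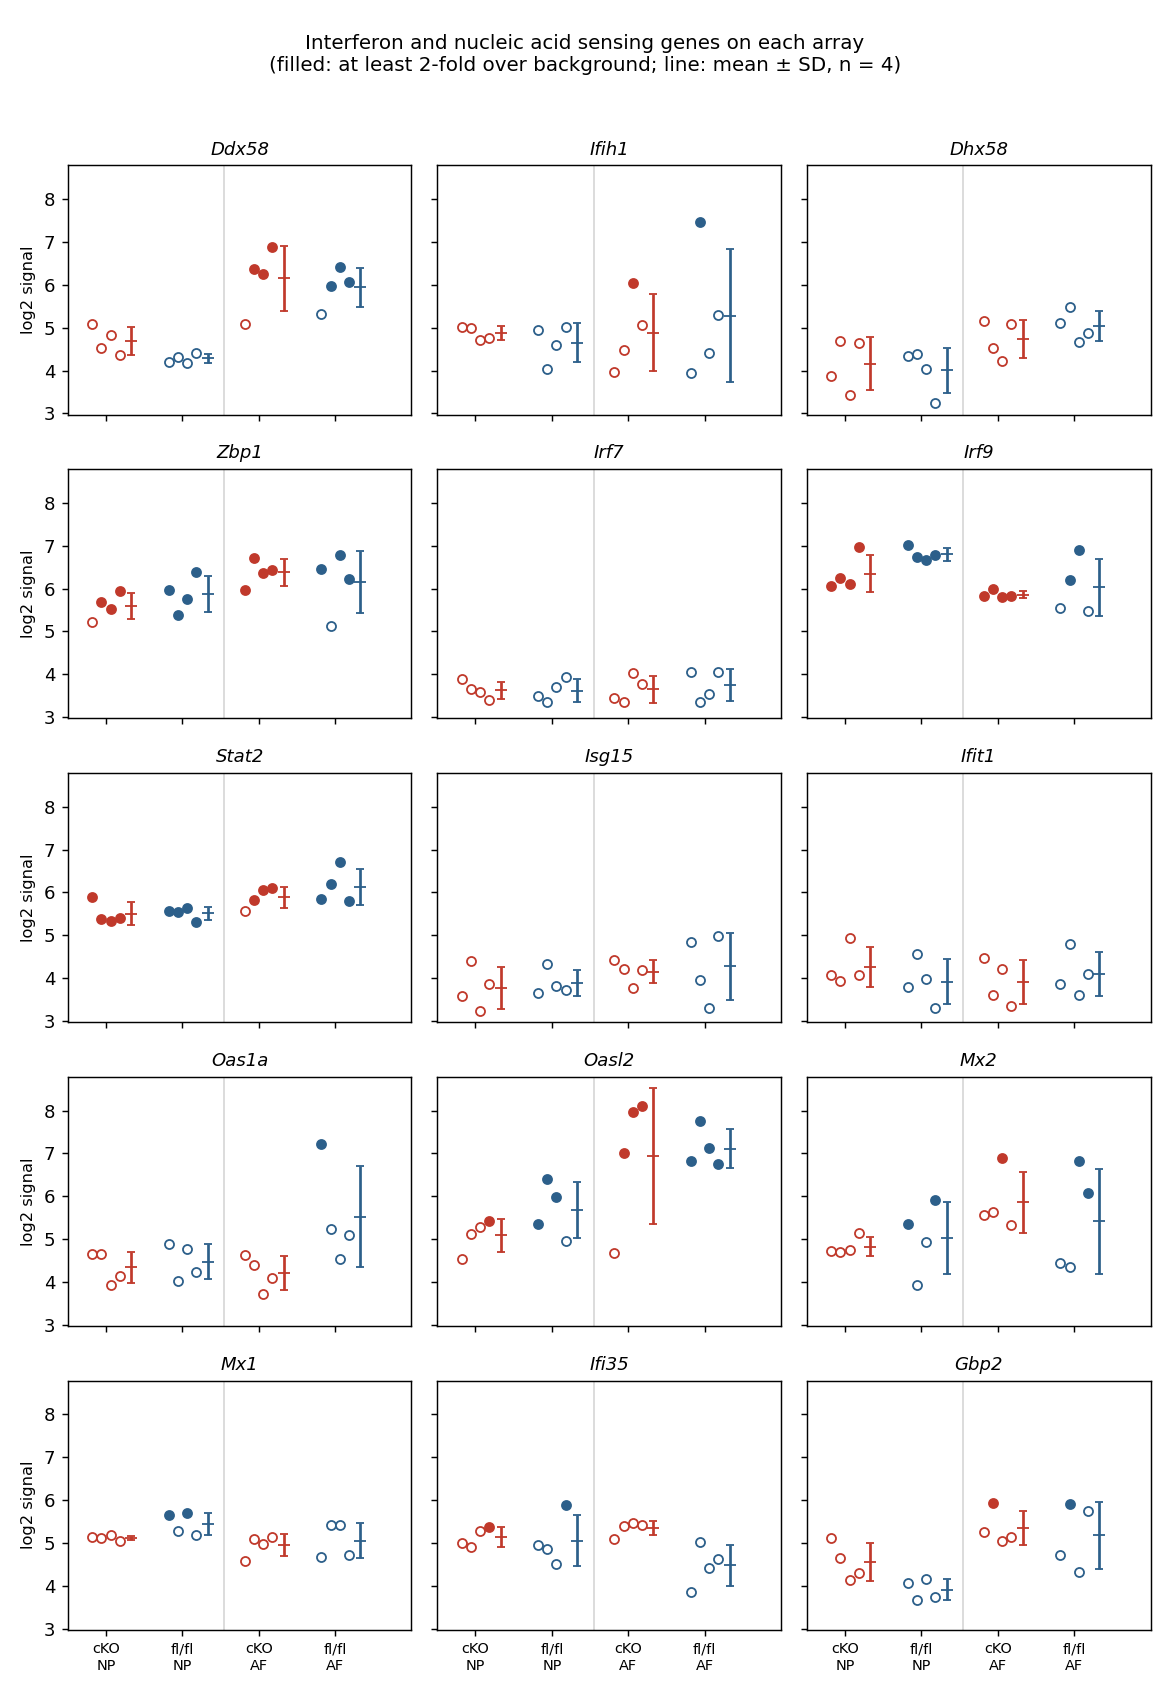
Log2 signal (y axis) of 15 genes on each array by group (x axis, cKO red and fl/fl blue, NP left of the gray line and AF right). Filled points are at least 2-fold over the array's background, open points are not, and the bar beside each group is the mean ± SD of 4 arrays. Irf7, Isg15 and Ifit1 have no filled point, Irf9 and Stat2 are filled on all NP arrays, and the groups of each tissue overlap except for Mx1 in NP and Ifi35 in AF.

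Among the transcription factors, Irf9 and Stat2, which carry the interferon signal to the ISRE, were detected on all 8 NP arrays, whereas Irf1, Irf3, Irf7 and Irf8 were detected on no array. Irf9 read 6.05, 6.26, 6.10 and 6.98 in cKO NP, against 7.03, 6.74, 6.68 and 6.78 in fl/fl NP. Of the cKO arrays 3 lay under all fl/fl arrays and array 4 inside their range, and the difference of -0.46 (95% interval -1.05 to 0.13) did not pass (limma adjusted p = 0.934). In AF Irf9 read 5.83, 5.99, 5.79 and 5.83 in cKO and 5.55, 6.19, 6.89 and 5.48 in fl/fl, with the cKO arrays inside the wider fl/fl range.

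Stat2 was nearly level between the genotypes in NP. It read 5.90, 5.37, 5.32 and 5.41 in cKO NP, against 5.57, 5.54, 5.64 and 5.30 in fl/fl NP, a difference of -0.01 (95% interval -0.53 to 0.51), with cKO array 1 apart from the other cKO arrays. In AF it read 5.58, 5.82, 6.06 and 6.10 in cKO and 5.84, 6.19, 6.70 and 5.79 in fl/fl, and the groups overlapped. Irf7, the factor that interferon itself induces and that amplifies the response, stayed at 3.88, 3.65, 3.59 and 3.40 in cKO NP and at 3.50, 3.35, 3.71 and 3.94 in fl/fl NP. AF arrays gave 3.44, 3.35, 4.02 and 3.78 in cKO and 4.05, 3.34, 3.54 and 4.06 in fl/fl. All 16 signals of Irf7 were below the background median of their arrays. Irf1 and Irf8, which also answer to interferon gamma, did not pass in either tissue, with differences of 0.22 and -0.09 in NP and 0.19 and 0.18 in AF, and Irf3, the factor that the sensors activate, ran from 3.41 to 5.26 over all arrays.

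Of the 20 antiviral effectors, 16 were tested, and none passed in NP while Ifi35 and Oas1a passed in AF. In NP 7 differences were positive and 9 negative, with a median of -0.08. In AF 7 were positive and 9 negative, with a median of -0.06. Isg15, the ubiquitin-like protein that is among the most strongly induced interferon targets, read 3.59, 4.39, 3.24 and 3.87 in cKO NP, against 3.66, 4.33, 3.82 and 3.72 in fl/fl NP. The AF signals were 4.42, 4.22, 3.78 and 4.18 in cKO and 4.85, 3.96, 3.31 and 4.97 in fl/fl. No array detected Isg15, the groups overlapped in both tissues, and the differences were -0.11 (95% interval -0.75 to 0.54) in NP and -0.13 (-1.01 to 0.76) in AF. Its promoter stretch, printed above, holds 3 overlapping ISRE cores.

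Ifit1, which binds viral RNA that lacks the host cap methylation, failed the filter on low signal. It read 4.08, 3.94, 4.94 and 4.06 in cKO NP and 3.80, 4.57, 3.97 and 3.31 in fl/fl NP. AF arrays gave 4.47, 3.60, 4.22 and 3.35 in cKO and 3.87, 4.79, 3.60 and 4.09 in fl/fl. Single arrays of either genotype were high within each tissue and the groups overlapped. The related Ifit2 was detected on no array and Ifit3 on 5 of 16, and their differences were -0.09 and -0.12 in NP and 0.26 and -0.13 in AF.

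The oligoadenylate synthetase family, whose products activate the nuclease RNase L, held the lowest difference of each tissue, Oasl2 in NP and Oas1a in AF. Oas1a read 4.63, 4.4, 3.72 and 4.10 in cKO AF (4.21 ± 0.39, SD, n = 4), against 7.23, 5.23, 4.54 and 5.09 in fl/fl AF (5.52 ± 1.18, SD, n = 4). Only fl/fl array 1 was over background, and cKO array 1 lay inside the range of the other fl/fl arrays. The difference of -1.31 (95% interval -2.43 to -0.19, limma adjusted p = 0.984) passed the thresholds, and without fl/fl AF array 1 it was -0.74 and did not. It also did not pass without cKO AF array 3 (-1.14) or without cKO AF array 4 (-1.27). In NP, Oas1a read 4.66, 4.64, 3.94 and 4.13 in cKO and 4.88, 4.01, 4.77 and 4.23 in fl/fl, a difference of -0.13 with overlap. Mouse Oas1a has near-identical neighbors of the same family, and a probe set may pick up their transcripts too.

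Oasl2, an oligoadenylate synthetase-like gene, was the member of the family detected on the most arrays. It read 4.54, 5.13, 5.27 and 5.42 in cKO NP, against 5.34, 6.41, 5.99 and 4.95 in fl/fl NP, and was detected on 1 cKO array and 3 fl/fl arrays. The groups overlapped, and the difference of -0.58 (95% interval -1.33 to 0.17) did not pass. In AF it read 4.68, 7.0, 7.96 and 8.11 in cKO and 6.82, 7.75, 7.12 and 6.75 in fl/fl, with cKO array 1 alone near background and a difference of -0.17 (-1.56 to 1.22). Oas2 and Oas3 were detected on no array, and Oasl1 did not pass the filter.

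Ifi35, an interferon-induced leucine zipper protein, read 5.10, 5.40, 5.46 and 5.42 in cKO AF (5.34 ± 0.17, SD, n = 4), against 3.84, 5.01, 4.41 and 4.62 in fl/fl AF (4.47 ± 0.49, SD, n = 4). All cKO arrays lay above all fl/fl arrays, and Ifi35 was the only gene of the list whose groups did not overlap in AF, against 2.61% of all genes. No AF array had it over background, so that the difference of 0.87 (95% interval 0.14 to 1.61, limma adjusted p = 0.984) is one between signals within 2-fold of background. It did not pass without fl/fl AF array 1 (0.66) or without cKO AF array 3 (0.83). In NP it read 5.0, 4.89, 5.28 and 5.38 in cKO and 4.95, 4.87, 4.5 and 5.88 in fl/fl, a difference of 0.09 with overlap. Its promoter window held the gamma-activated sequence and no ISRE core.

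The Mx GTPases, which trap viral nucleocapsids, did not pass in either tissue. Mx1 was chosen for description after its values were seen, as the only gene of the list whose groups did not overlap in NP, against 2.81% of all genes. It read 5.12, 5.12, 5.18 and 5.05 in cKO NP (5.12 ± 0.05, SD, n = 4), against 5.65, 5.27, 5.69 and 5.18 in fl/fl NP (5.45 ± 0.26, SD, n = 4). The highest cKO array (5.177) and the lowest fl/fl array (5.179) nearly touched, only the 2 highest fl/fl arrays were over background, and the difference of -0.33 (95% interval -0.84 to 0.18) did not pass. Mx2 read 4.72, 4.69, 4.75 and 5.15 in cKO NP, against 5.36, 3.92, 4.93 and 5.91 in fl/fl NP, where the fl/fl arrays spread over a wider range than the cKO arrays. In AF it read 5.56, 5.63, 6.89 and 5.33 in cKO and 4.44, 4.34, 6.83 and 6.06 in fl/fl, and the groups overlapped.

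The other effectors tested were Eif2ak2, which encodes the kinase PKR, Rsad2, Bst2, Ifitm3, Trim25 and Xaf1. None passed in either tissue, and their differences ran from -0.57 for Ifitm3 to 0.46 for Bst2 in NP, and from -0.50 for Rsad2 to 0.49 for Ifitm3 in AF. Ifitm3, which blocks the fusion of viruses with endosomes, was detected on 1 fl/fl NP array and 1 cKO AF array. Ifi27, which failed the filter, was detected on a single fl/fl AF array.

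The interferon-inducible GTPases, which attack the vacuoles of intracellular pathogens, were the role with the highest median in NP, 0.44 with 3 of 4 positive, beside a median of -0.34 with 3 of 4 negative in AF. The Mx GTPases were counted among the effectors and are not in this role. Gbp2, named here because it was the one gene at an unadjusted p under 0.05, read 5.12, 4.65, 4.14 and 4.30 in cKO NP (4.55 ± 0.44, SD, n = 4), against 4.06, 3.67, 4.16 and 3.74 in fl/fl NP (3.91 ± 0.24, SD, n = 4). The cKO arrays 1, 2 and 4 were above all fl/fl arrays, cKO array 3 lay inside their range, and no NP array had Gbp2 over background. The difference was 0.65 (95% interval 0.04 to 1.25, limma adjusted p = 0.934), and its unadjusted p was no longer under 0.05 in 7 of 17 alternative settings. These were leaving out cKO array 1 (0.45), cKO array 2 (0.61), fl/fl array 2 (0.57), fl/fl array 4 (0.59) or cKO arrays 1 and 3 together (0.57), the replicate number as a block, and 1 fit over the 16 arrays. The AF arrays read 5.25, 5.93, 5.05 and 5.13 in cKO and 4.72, 5.91, 4.32 and 5.74 in fl/fl, a difference of 0.17 with overlap. Iigp1, Gbp3 and Igtp had differences of 0.54, 0.35 and -0.12 in NP and -0.34, -0.35 and -0.62 in AF, and none passed.

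The genotype difference in NP was set against that in AF by the interaction term of 1 fit over the 16 arrays. No gene of the 28 had an unadjusted p under 0.05, against 4.12% of all genes. The largest terms were 1.17 for Oas1a (95% interval -0.13 to 2.48), -1.05 for Ifitm3 (-2.21 to 0.11) and 0.88 for Iigp1 (-0.09 to 1.85). All 4 genes of the interferon-inducible GTPase role had a positive term, from 0.48 to 0.88, and each interval held 0. The Mx GTPases, counted among the effectors, had negative terms, -0.22 for Mx1 and -0.64 for Mx2, and their intervals also held 0. The intervals were wide, and a doubling was excluded for 10 of the 28 genes (35.7%, against 45.5% of all genes).

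Between the tissues of 1 genotype, the arrays were quantile normalized together, because the median log2 signal lay at 4.41 to 4.49 in NP and at 4.93 to 5.0 in AF and the tissues may have been normalized apart. In cKO mice none of the 28 genes passed at an adjusted p under 0.05, against 1.15% of all genes, and Irf9 had a difference of 1.23 (limma adjusted p = 0.0795). In fl/fl mice Irf9 was higher in NP than in AF, by 1.48 (95% interval 0.76 to 2.19, limma adjusted p = 0.0440), 1 of 28 genes, against 1.04% of all genes in either direction and 0.618% higher in NP. On the deposited scale fl/fl NP read 7.03, 6.74, 6.68 and 6.78 and fl/fl AF 5.55, 6.19, 6.89 and 5.48, so that AF array 3 reached into the NP range, and the difference there was 0.78 (limma adjusted p = 0.101). Irf9 lost its call in fl/fl in 15 of 20 alternative settings, leaving out any 1 of the 4 fl/fl NP arrays among them. Mx1 and Ifi35 had positive differences in fl/fl (0.98 and 1.06, limma adjusted p = 0.0648 and 0.0902), and Ddx58 a negative one (-1.14, limma adjusted p = 0.0819). Over the 28 genes, 14 differences were positive and 14 negative in each genotype. The tissue calls depended on the normalization, and on the deposited values Ddx58 and Oasl2 passed in cKO, and Ddx58, Gbp2 and Oas2 in fl/fl. Each of these was lower in NP, the tissue with the lower array medians on that scale. The share of all genes passing on the deposited values is not given here, so these calls are not read as particular to the list.

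The wider pathway was read from 110 further genes in 7 lists, of which 97 had a named probe set and 80 were tested. In NP 1 was higher past the thresholds and 1 lower, beside 1.41% and 0.978% of all genes. In AF 2 were higher and none lower, beside the AF shares given above. Without the cKO arrays that stood apart, 2 other genes were higher in NP in place of the first (Ifng and Tbk1) and 1 lower (Jak2 again), and in AF both calls were lost while 1 other gene was higher (Rnaseh2b) and 1 lower (Ifna11). Of all 16665 genes, 320 were higher and 296 lower in NP without those arrays, and 414 higher and 175 lower in AF. At an unadjusted p under 0.05 without the fold threshold, 4 of the 80 were higher in cKO NP and 5 lower. Of all 16665 genes, 414 were higher and 409 lower, which is 4.94% for both directions together. In cKO AF 2 were higher and 1 lower at that p, beside 364 higher and 303 lower of all 16665 genes, 4% for both directions together. Of the 12 interferon ligands, Ifng, the interferon of lymphocytes, was higher in cKO AF. It read 5.06, 6.24, 5.42 and 6.78 in cKO AF (5.87 ± 0.78, SD, n = 4), against 4.75, 4.09, 5.32 and 5.07 in fl/fl AF (4.81 ± 0.53, SD, n = 4). The cKO arrays 2 and 4 were over background, cKO array 1 lay inside the fl/fl range, and the difference was 1.07 (95% interval 0.12 to 2.01, limma adjusted p = 0.984). Ifng did not pass without cKO AF array 4 (0.77), cKO AF array 2 (0.945), fl/fl AF array 1 (1.05) or fl/fl AF array 2 (0.83), nor without cKO AF arrays 1 and 4 together (1.02). Of 5 lymphocyte markers measured, 1 was detected on any cKO AF array and 1 on any fl/fl AF array, and their summed signal (linear scale) ran from 136.0 to 218.1 in cKO AF and 125.7 to 190.0 in fl/fl AF. The B cell gene Cd79a was higher in cKO AF past the thresholds (0.91, limma adjusted p = 0.984), with 3.957 to 5.996 in cKO AF and 4.042 to 4.402 in fl/fl AF and 1 cKO array over background. The other B cell gene measured, Ms4a1, went the other way in AF (-0.25) and did not pass. It was over background on 1 fl/fl AF array and on no cKO AF array. The T cell and killer cell markers Cd3e, Cd8a and Nkg7 were detected on no array. The part of lymphocytes in the Ifng difference was not tested. Ifna11, a type I interferon gene, was lower in cKO AF at an unadjusted p under 0.05 (-0.77, limma adjusted p = 0.984), short of the fold threshold. Its cKO AF arrays were all under its fl/fl AF arrays, against 2.61% of all genes without overlap in AF, and no AF array had it over background. No ligand other than Ifng passed in AF, and no ligand passed in NP.

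Of the receptors, kinases and feedback genes, 12 were tested, and only Jak2, the kinase of the interferon gamma receptor, passed. It read 3.88, 4.35, 4.36 and 3.83 in cKO NP (4.11 ± 0.29, SD, n = 4), against 5.17, 4.74, 5.40 and 4.73 in fl/fl NP (5.01 ± 0.33, SD, n = 4). All cKO arrays were under all fl/fl arrays, with 1 fl/fl array over background, and the difference was -0.90 (95% interval -1.48 to -0.33, limma adjusted p = 0.934). Without cKO NP arrays 1 and 3 together it was -0.92 and still passed, and without fl/fl NP array 3 it was -0.78, under the fold threshold.

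Of the antigen presentation genes, 13 were tested, and B2m, the invariant chain of MHC class I, was the only one past the thresholds. It read 9.62, 3.98, 10.5 and 3.92 in cKO NP, against 5.0, 3.99, 3.69 and 3.51 in fl/fl NP. The difference of 2.95 (95% interval 0.13 to 5.77, limma adjusted p = 0.934) rested on cKO NP arrays 1 and 3, which alone were over background, and without those arrays it was -0.10. The call was also lost when fl/fl NP array 2, 3 or 4 was left out and with a trended and robust variance prior. Psmb10 and H2-T23, an immunoproteasome subunit and a class I molecule, were lower at p under 0.05 in cKO NP, by -0.70 and -0.57, and did not reach the fold threshold.

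The sensing lists held no gene past the thresholds in NP or AF. Of the 6 DNA sensing and 8 RNA sensing genes tested, Mavs and Tlr3 had differences of -0.65 and -0.58 in NP and Tbk1 and Tlr7 of 0.58 and 0.58, each at an unadjusted p under 0.05. Mavs is the adaptor of the RNA helicases, Tlr3 and Tlr7 are endosomal RNA receptors and Tbk1 is the kinase that activates Irf3. None of these 4 reached the fold threshold. Tbk1 was detected on all 8 NP arrays and the other 3 on none. Among 13 nucleic acid clearing and retroelement silencing genes, Morc2a, a silencer of integrated retroelements, had a difference of 0.71 in NP at an unadjusted p under 0.05, short of the fold threshold. Of the same genes, Rnaseh2c, a subunit of the RNase that removes RNA from DNA hybrids, was higher in cKO AF, at 5.46, 5.11, 4.97 and 5.33 against 3.87, 4.5, 4.27 and 4.34 in fl/fl AF. The groups did not overlap, all 8 arrays were within 2-fold of background, and the difference was 0.97 (95% interval 0.30 to 1.65, limma adjusted p = 0.984). Without cKO AF arrays 1 and 4 together it was 0.79 and did not pass. The 19 other interferon-stimulated genes tested, among them chemokines and further GTPases, had 5 positive and 14 negative differences in NP and 7 and 12 in AF, and none passed in either tissue.

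**Figure D4:**
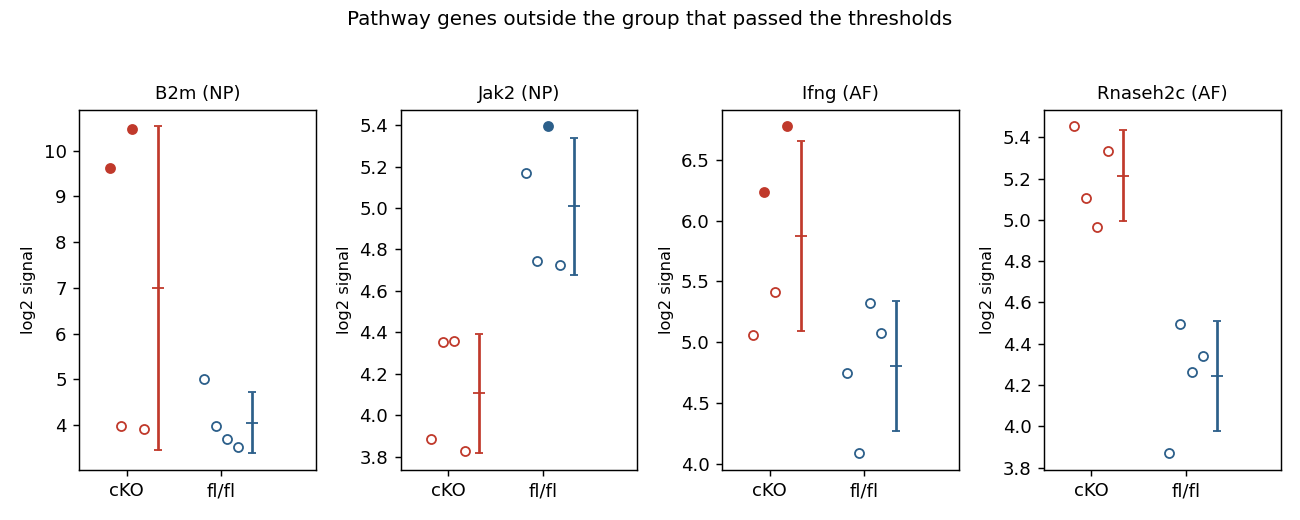
Log2 signal (y axis, scaled per panel) on each array for the 4 pathway genes outside the list that passed the thresholds, B2m and Jak2 in NP and Ifng and Rnaseh2c in AF, with cKO in red left of fl/fl in blue. Filled points are at least 2-fold over background and the bar is the mean ± SD of 4 arrays. The high B2m signals are cKO NP arrays 1 and 3.

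The genes of the list did not move together from array to array. After each group's mean was taken out, the mean correlation over the 378 pairs of the 28 genes was 0.01 over the 8 NP arrays and 0.00 over the 8 AF arrays, beside 0.00 and 0.01 over all genes, and 50.8% and 51.1% of the pairs were positive. These pairs share arrays, and many of the genes were near background. The 537 tested genes of the genome with an ISRE core in their window had a median difference of -0.02 in NP and 0.00 in AF. Past the thresholds were 2.05% of them in NP and 3.35% in AF, beside 2.43% and 3.65% of the 12898 genes without the motif.

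Most markers of the immune cells that can make or carry interferon transcripts were near background in both genotypes. Of 10 macrophage and myeloid markers measured, 1 was detected on any cKO NP array and 2 on any fl/fl NP array, and 3 in each AF genotype. Their summed signal (linear scale) ran from 169.2 to 225.2 in cKO NP and 175.9 to 235.6 in fl/fl NP, and from 299.3 to 325.4 in cKO AF and 262.9 to 374.4 in fl/fl AF. Ptprc, the pan-leukocyte gene, was detected on no NP array and on 1 AF array of each genotype, whereas the macrophage gene Adgre1 was detected on all 8 AF arrays. Siglech, a gene of plasmacytoid dendritic cells, which release type I interferon, was detected on all arrays except 1 fl/fl NP array, with 5.37 to 6.09 in cKO NP and 4.60 to 7.09 in fl/fl NP, and with 5.95 to 7.70 in cKO AF and 6.0 to 6.53 in fl/fl AF. The other 3 genes of that list were near background, with Ly6d detected on no array, Ccr9 on 1 cKO AF array and Tcf4 on 1 AF array of each genotype. The part of such cells in the differences above was not tested.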

How the data were processed

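Total RNA of microdissected NP and AF was labeled as cDNA, hybridized to Mouse Clariom S arrays and summarized by the authors with the SST-RMA method, and their deposited table gives each probe set a log2 signal (2.56 to 19.9). The Transcriptome Analysis Console is named in the processing notes of the submitters. The sources used here do not give whether NP and AF went through 1 normalization. Of 28846 probe sets, 19572 had 1 gene symbol in the platform annotation. Probe sets were kept where at least 4 of the 16 arrays read above their 40th percentile, and the probe set with the highest mean stood for its gene.

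Groups follow the labels. Within NP and within AF, 4 cKO arrays were compared with 4 fl/fl arrays by the moderated linear models of limma (version 3.58.1, R 4.3.3), with Benjamini-Hochberg adjustment over the 16665 genes. The interaction and the tissue differences came from 1 fit over 16 arrays, after quantile normalization for the tissue differences. The fits were tested on simulated data. Genes were described by array when past the thresholds in NP or AF or at an unadjusted p under 0.05 for the interaction, when among the 5 highest mean signals of the list, or when a sensor or Isg15, Irf7 or Ifit1. Mx1 and Gbp2 were added after their values were seen. The genes and lists were chosen with earlier results of these data known. Ddx58 was matched under that symbol, and its current name is Rigi.

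The small number of arrays limits the precision. Promoter sequences were RefSeq windows. Alternatives covered the filter, normalization, array weights, the SAM statistic that the authors name, and each array left out. Same-numbered arrays were checked for shared deviations, and their correlations ran from -0.142 to 0.062. The labels do not say whether equal numbers mark the same mouse, and these correlations cannot exclude it. The interaction and the tissue differences treated the NP and AF arrays as independent.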

Additional observations from a re-analysis of the deposited data

Results flagged for a closer look

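In each group of 4 arrays, the highest and the lowest signal of the 33 genes was set against the other 3 by Dixon's ratio, and 4 of 132 groups held an array that stood apart. Chance alone flags about 1 in 20 groups. Irf3, the factor activated by the sensors, read 5.255 on fl/fl AF array 4, against 3.784 to 3.901 on the other fl/fl AF arrays. Stat2, part of the complex that binds the ISRE, read 5.898 on cKO NP array 1, against 5.323 to 5.407 on the other cKO NP arrays. Ifit1 read 4.943 on cKO NP array 3, against 3.940 to 4.076 on the others. Mx2 read 5.146 on cKO NP array 4, against 4.686 to 4.750. Of the 4, only the Stat2 signals were over background, and no array held more than 1 of these genes.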

How the results depend on the processing

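In NP no gene passed the study thresholds under 10 of the planned settings that kept all arrays, SAM included, and 1 passed without cKO arrays 1 and 3 together (Iigp1). In AF the count was 2 (Ifi35 and Oas1a) by limma and by SAM. It was 1 with the stricter filter on low signal (Ifi35), beside 236 of the 6512 genes left. Among detected genes alone it was 0, where few genes of the list remained. With each array left out in turn the NP count ran from 0 to 1 and the AF count from 0 to 3. It was 1 without fl/fl NP replicate 4 (Oasl2), 0 without fl/fl AF replicate 1 or without cKO AF replicate 3, 1 without cKO AF replicate 4 (Ifi35) and 3 without fl/fl AF replicate 2. Of all 16665 genes, 450 passed without fl/fl NP replicate 4, 656 without cKO AF replicate 4 and 621 without fl/fl AF replicate 2. The interaction had 1 gene at an unadjusted p under 0.05 with array weights (Ifitm3) and 0 to 2 when each array was left out. For NP minus AF, 2 genes passed in cKO and 3 in fl/fl on the deposited values, each lower in NP. With arrays centered on background controls, 0 passed in fl/fl. When each array was left out, 0 to 1 passed in cKO and 0 to 2 in fl/fl. Irf9 in fl/fl kept its sign in all 20 settings, from 0.78 to 1.77, and lost its call in 15. No difference changed sign for Oas1a (-1.64 to -0.74), Ifi35 (0.66 to 1.05) or Gbp2 (0.45 to 0.78). With the replicate number as a block, the counts stayed at 0 in NP and 2 in AF, the interaction had 1 gene (Oas1a), and the tissue difference had 0 genes in cKO and 0 in fl/fl. Whether equal numbers mark the same mouse is not known, and the cause of these shifts was not tested. Most genes of the list were within 2-fold of background, which limits what these arrays can show of them.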
